A study of Rattus norvegicus with 24 samples.

Results

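Testosterone was compared with its oil vehicle in the mesenteric arteries of ovariectomised rats. These vessels supply the gut, and their tone contributes to blood pressure. The comparison used 16 of the 24 arrays of the series, which came from 8 of its 12 animals. All arrays labelled vehicle or testosterone were taken, and each animal was represented by 2 arrays of the same cRNA, averaged on the log2 scale. All were female Sprague Dawley rats whose ovaries had been removed at 3 weeks of age, and after 2 weeks of recovery they were injected intraperitoneally on 4 days, which brought them to 5.5 weeks of age. The vehicle group (animals 3, 4, 5 and 8) received sesame oil. The testosterone group (animals 2, 4, 6 and 8) received 1 mg testosterone per kg per day. A further 4 animals, given 0.15 mg estradiol benzoate per kg per day, entered the fit as its remaining group. Both groups compared here therefore lacked ovaries and were young. The injected androgen was the natural steroid, which tissues can convert to dihydrotestosterone or, by aromatase, to estradiol, so the labels do not separate androgen from estrogen action. The time of day at which the arteries were collected is not given in the sources used here.

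Testosterone is the main circulating androgen, a steroid hormone that changes gene transcription in its target tissues, and vessel walls are among them. The circadian clock, to which 3 of the 4 named genes that passed the test belong, is a feedback loop present in nearly all cells, arteries included. BMAL1 and CLOCK activate genes through E-box sequences. Among their targets are the PER, CRY, REV-ERB and DEC proteins, which repress the activators in turn, and the output factors DBP and TEF, which act through D-box sequences. The messages of these genes normally rise and fall over the day, with Bmal1 in the opposite phase to Dbp.

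The arrays carried 10399 probes, of which 7294 had a single gene symbol and 10228 were tested. These gave 6371 genes. The deposited values are scaled spot brightness in arbitrary units, with array medians between 0.926 and 0.951 in the vehicle and testosterone arrays. Between 152 and 665 spots per array were blank, and the duplicate arrays of an animal correlated across probes at r = 0.976 to 0.992 on the log2 scale. The precision is limited by the number of animals. Over all genes the median standard deviation between animals was 0.20 (log2) in the vehicle group and 0.18 in the testosterone group. Smooth muscle was represented by 2 of 8 markers, Cnn1 and Smtn, and endothelium by 5 of 6. Acta2, Myh11 and Tagln, like the endothelial nitric oxide synthase gene Nos3, had no tested probe with a single symbol. Summed brightness of the 2 smooth muscle markers was 35.5 to 52.8 in vehicle and 34.1 to 44.7 in testosterone animals, and that of the 5 endothelial markers was 49.9 to 58.8 and 48.3 to 61.2. Fat markers were also bright, with a sum of 3 markers of 47.9 to 59.5 in vehicle and 49.7 to 67.2 in testosterone animals.

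Few transcripts passed the test, and 3 of the 4 named ones belong to the clock. Bmal1, the activator, was lower with testosterone, while Dbp, an output factor, and Bhlhe40, which encodes the repressor DEC1, were higher. The collection time of each animal is not given. For these clock genes a difference by hormone and one by time of day can therefore not be told apart. Tmem86a, which encodes an enzyme that breaks down lysoplasmalogen lipids, was also higher. In all, 5 of 10228 probes were called at an adjusted p under 0.05, which is 0.0489% of the probes tested, and 4 of these stood for genes, 0.0628% of the 6371. The fifth, probe 4744, has no single gene symbol. Its level was 0.232 to 0.275 in vehicle and 0.133 to 0.160 in testosterone animals, a log2 change of -0.79 (SE 0.09, adjusted p = 0.0197).

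At an unadjusted p under 0.05, 677 probes were higher with testosterone (6.62%) and 760 were lower (7.43%). Over the 6371 genes the shares were 6.86% higher and 7.36% lower. Counts of list members at this p are to be read against those shares. The median log2 difference over all genes was -0.01, with the middle 50% between -0.14 and 0.14, and 47.1% of the genes were higher. Differences beyond 1 log2 unit were found for 30 genes on the higher side and 90 on the lower. The direction of small differences moved with brightness. With genes ordered by brightness into 4 equal classes, the median difference ran from 0.09 in the dimmest class to 0.04, -0.03 and -0.08 in the brighter ones, and after quantile normalization it ran from 0.04 to 0.01, -0.00 and -0.01. Medians of gene lists are therefore given below under both scalings wherever the direction depends on it.

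**Figure D1:**
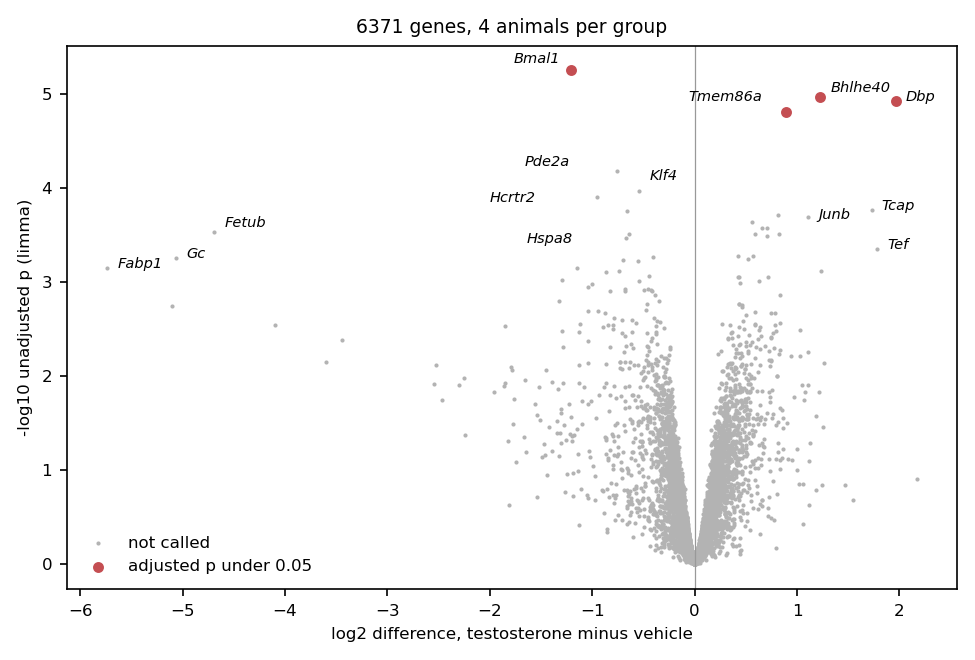
Each point is 1 of 6371 genes, with the log2 difference between testosterone and vehicle (4 animals each) on the x axis and -log10 of the unadjusted limma p on the y axis. The 4 red points are the genes called at an adjusted p under 0.05, Bmal1 on the left and Bhlhe40, Dbp and Tmem86a on the right, and the points beyond -4 include the liver genes Fabp1, Gc and Fetub, which were not called.

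Bmal1 was the activator that moved. Its level was 3.63, 3.64, 4.09 and 3.67 in vehicle animals 3, 4, 5 and 8. In testosterone animals 2, 4, 6 and 8 it was 1.75, 2.00, 1.23 and 1.61. The vehicle animals lay close together, and every testosterone animal lay below all of them, so the groups did not overlap. The log2 change was -1.21 (SE 0.15, adjusted p = 0.0282, limma), a level 0.432 times that of the vehicle. The AA arrays alone and the AB arrays alone both gave -1.21, with adjusted p = 0.0313 and 0.0268.

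Dbp, an output of the loop and itself a transcription factor, showed the opposite pattern. Its level was 2.71, 2.58, 3.32 and 4.38 in vehicle animals 3, 4, 5 and 8, and 11.2, 10.9, 14.6 and 13.1 in testosterone animals 2, 4, 6 and 8. All testosterone animals were above all vehicle animals by a wide margin. The log2 change was 1.96 (SE 0.27, adjusted p = 0.0297), a 3.90-fold higher level, and it was 1.87 on the AA arrays, where it was not called (adjusted p = 0.0988), and 1.98 on the AB arrays (adjusted p = 0.0276).

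Bhlhe40 encodes a repressor that competes with BMAL1 and CLOCK at E-boxes. Its spot was dim. The level was 0.102, 0.0724, 0.105 and 0.137 in the vehicle animals and 0.237, 0.215, 0.283 and 0.219 in the testosterone animals, again without overlap. The log2 change was 1.22 (SE 0.17, adjusted p = 0.0297), a 2.34-fold higher level. On the AA arrays it was 1.12 and not called (adjusted p = 0.114), and on the AB arrays it was 1.20 (adjusted p = 0.0228). Tmem86a, which is no core clock gene, was at 0.0927, 0.125, 0.0915 and 0.0984 in the vehicle animals and at 0.209, 0.179, 0.203 and 0.161 in the testosterone animals. Here the lowest testosterone animal still exceeded the highest vehicle animal, and the log2 change was 0.89 (SE 0.12, adjusted p = 0.0317), with 0.67 on the AA and 1.11 on the AB arrays. Neither set of arrays alone called Tmem86a (adjusted p = 0.0988 and 0.0672).

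These 4 calls rest on the full set of animals. When each of the 12 animals was left out in turn, the Bmal1 change stayed between -1.31 and -1.08 and was called in 7 of 12 fits. Dbp stayed between 1.86 and 2.12 and was called in 5. Bhlhe40 stayed between 1.06 and 1.37 and was called in 4, and Tmem86a stayed between 0.83 and 0.99 and was called in 3. Without vehicle animal 3 the adjusted p values were 0.131, 0.172, 0.172 and 0.172 in the same order. Without testosterone animal 2 they were 0.0653, 0.107, 0.107 and 0.131, and without testosterone animal 6 they were 0.0719, 0.167, 0.167 and 0.184. The number of probes called over the whole array was 0 in each of these 3 fits. With the 8 compared animals alone, Dbp stayed called (adjusted p = 0.0290), while the adjusted p was 0.0985 for Bmal1 and 0.251 for Bhlhe40 and Tmem86a. With 0.1 added to each value before taking log2, which shrinks differences of dim spots, Bhlhe40 was at 0.73 (adjusted p = 0.0130) and Tmem86a at 0.51 and not called (adjusted p = 0.0561).

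**Figure D2:**
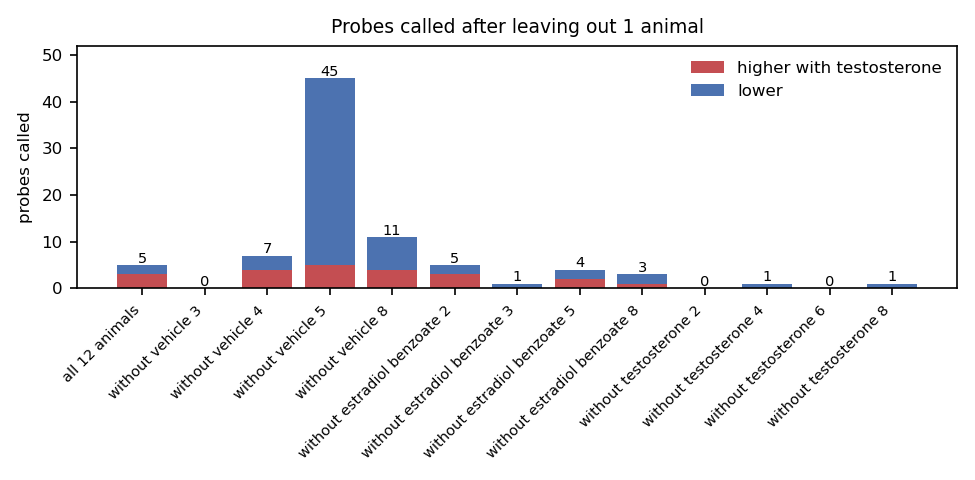
Bars give the number of probes called at an adjusted p under 0.05 (y axis), split into higher and lower with testosterone, for all 12 animals and after leaving out 1 animal at a time (x axis). The count was 5 with all animals and 45 without vehicle animal 5, and it fell to 0 when either vehicle animal 3 or one of testosterone animals 2 and 6 was omitted.

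Leaving out vehicle animal 5 raised the count to 45 probes, 5 higher and 40 lower. They stood for 21 named genes, among them Bmal1, Dbp, Bhlhe40, Tmem86a, Pde2a, which encodes a cyclic nucleotide phosphodiesterase, and Hcrtr2, an orexin receptor. Leaving out vehicle animal 8 gave 11 probes and leaving out vehicle animal 4 gave 7.

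The promoters of the 4 clock genes with the largest differences are shown because they differ in which clock motifs they hold. They are RefSeq promoters of the rat build GRCr8, from 250 bases before to 50 after the annotated start, written 5′ to 3′ along the gene. Capitals mark a match, searched on both strands, to the E-box CACGTG, the D-box TTANGTAA or the ROR half-site AGGTCA, the sequence read by ROR activators and REV-ERB repressors. The positions are chr1:176766078-176766377 (plus strand) for Bmal1, chr1:105312006-105312305 (plus) for Dbp, chr7:115206577-115206876 (plus) for Tef and chr4:143174200-143174499 (plus) for Bhlhe40.
Bmal1: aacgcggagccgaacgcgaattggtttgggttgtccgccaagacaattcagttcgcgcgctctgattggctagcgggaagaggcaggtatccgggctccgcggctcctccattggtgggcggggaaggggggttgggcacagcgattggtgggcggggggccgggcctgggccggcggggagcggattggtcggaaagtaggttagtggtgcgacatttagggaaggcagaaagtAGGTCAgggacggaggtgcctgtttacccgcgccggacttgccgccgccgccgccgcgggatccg
Dbp: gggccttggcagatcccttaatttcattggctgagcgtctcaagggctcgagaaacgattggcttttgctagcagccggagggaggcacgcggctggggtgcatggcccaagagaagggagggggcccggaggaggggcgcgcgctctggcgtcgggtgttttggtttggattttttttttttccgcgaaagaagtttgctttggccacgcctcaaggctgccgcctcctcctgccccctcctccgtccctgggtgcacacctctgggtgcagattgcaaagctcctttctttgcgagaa
Tef: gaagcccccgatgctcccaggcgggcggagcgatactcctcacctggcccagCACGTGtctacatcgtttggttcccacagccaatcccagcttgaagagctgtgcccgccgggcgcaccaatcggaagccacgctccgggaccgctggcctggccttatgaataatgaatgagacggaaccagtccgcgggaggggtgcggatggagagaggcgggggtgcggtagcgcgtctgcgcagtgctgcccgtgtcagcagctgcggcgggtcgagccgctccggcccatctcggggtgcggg
Bhlhe40: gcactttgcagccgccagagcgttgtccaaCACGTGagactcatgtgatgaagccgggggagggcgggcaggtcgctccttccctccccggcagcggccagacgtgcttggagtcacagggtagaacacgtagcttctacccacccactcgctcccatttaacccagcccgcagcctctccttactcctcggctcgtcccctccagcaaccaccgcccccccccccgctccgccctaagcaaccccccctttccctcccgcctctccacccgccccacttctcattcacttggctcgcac
Bmal1 holds a ROR half-site that begins at base -15 from the start. Tef and Bhlhe40 each hold an E-box, beginning at -198 and -220. The Dbp window holds none of the motifs searched.

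Of the 12 clock genes measured, 10 had a promoter entry. Beside those printed, Nr1d2 has a ROR half-site at -187, Usp2 has one at -70, and Per2 has a D-box at -192. The half-site was thus found in Bmal1, which was lower with testosterone, and in Nr1d2, which was higher but not called. Promoters were looked up for 38 genes, namely the clock genes, the called genes and those with the smallest unadjusted p. Of these, 29 had an entry. Among the ones outside the clock lists, Hcrtr2, Cish and Fabp1 hold the ROR half-site too. Over all 33469 promoters of the table, 6.42% hold the E-box, 2.24% the D-box and 16.2% the ROR half-site. Among 5558 promoters of tested genes the shares are 8.73%, 1.30% and 12.7%. Of the 11 promoters of the 10 clock genes, 2 hold the E-box, 1 the D-box and 3 the ROR half-site. The palindromic element of steroid receptors occurs in 0.439% of all promoters and in 0 of the 11 clock promoters. The AP-1 site TGANTCA (7.33% of all) and the cyclic AMP element TGACGTCA (1.83%) were also found in 0 of the 11.

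The clock lists as a whole covered 2 of 6 activators, 6 of 13 repressors and modifiers, and 4 of 7 outputs. Both activators were lower, with a median of -0.70. Clock itself was at 0.0877 to 0.159 in vehicle and 0.0966 to 0.129 in testosterone animals, with overlapping groups and a log2 difference of -0.20 (SE 0.22). Of the repressors 5 were higher and 1 was lower, with a median of 0.34, and 2 passed an unadjusted p under 0.05 on the higher side, where the share over all genes was 6.86%. All 4 outputs were higher, with a median of 1.08, and 3 passed that p. Groups that did not overlap were found for 1 activator, 1 repressor and 2 outputs, against 2.59% of all genes on the higher side and 3.26% on the lower.

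Tef, like Dbp a D-box binding factor, was at 0.0447, 0.0846, 0.0920 and 0.141 in vehicle animals 3, 4, 5 and 8 and at 0.226, 0.221, 0.416 and 0.330 in testosterone animals 2, 4, 6 and 8. The groups did not overlap, but the spread within them was wide. The log2 difference was 1.78 (SE 0.37) with an adjusted p = 0.126, so Tef was not called. Nr1d2, which encodes the Bmal1 repressor REV-ERB beta, was at 5.17, 5.18, 8.25 and 13.5 in the vehicle animals and at 13.1, 14.7 and 17.8 in testosterone animals 4, 6 and 8, with no value in animal 2. Vehicle animal 8 lay within the testosterone range. The difference was 1.03 (SE 0.30, adjusted p = 0.239), and a second, dimmer Nr1d2 probe gave 1.73 (SE 0.41, adjusted p = 0.163).

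The remaining repressors and outputs differed less. Wee1, a cell cycle kinase under E-box control, was at 0.476, 0.512, 0.539 and 0.644 in vehicle and 0.673, 0.639, 0.741 and 0.748 in testosterone animals. Only testosterone animal 4 fell below the highest vehicle animal, and the difference was 0.37 (SE 0.11, adjusted p = 0.225). Per2, a core repressor, differed by 0.40 (SE 0.20) with overlapping groups between 0.0229 and 0.0546, at the dim end of the array. Csnk1e, a kinase that marks PER proteins for degradation, differed by 0.29 (SE 0.17). Usp2, a deubiquitinase, differed by 0.22 (SE 0.11) on its brighter probe and by -0.04 on the other. Cry2 differed by -0.06 (SE 0.10) and Csnk1d by 0.07 (SE 0.24), both within the spread, and both took either sign over the alternative settings.

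**Figure D3:**
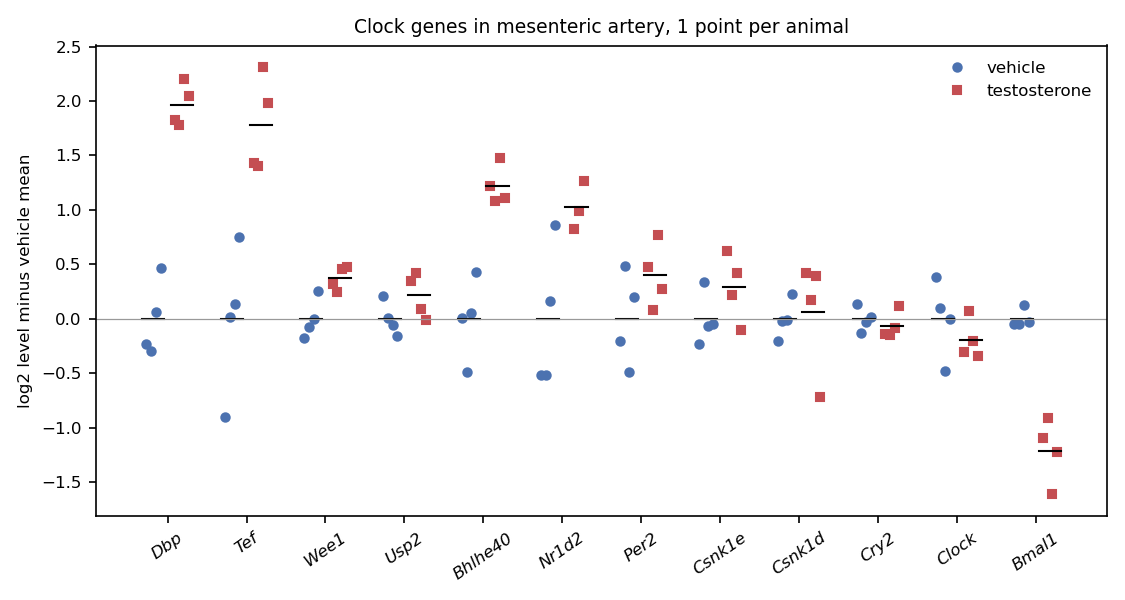
Points are the log2 levels of 12 clock genes in single animals minus the vehicle mean of that gene (y axis), with vehicle as circles, testosterone as squares and group means as black lines. The testosterone squares of Dbp, Tef and Bhlhe40 lie above all vehicle circles, those of Bmal1 lie below all, and those of Cry2, Csnk1d and Clock overlap the circles.

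For the called genes, the mean of the animals given estradiol benzoate lay between those of the other groups. Bmal1 was 3.15, 2.98, 3.34 and 2.30 in estradiol animals 2, 3, 5 and 8, above all testosterone animals and below all vehicle animals. Testosterone minus estradiol was -0.85 (SE 0.15, adjusted p = 0.219). Dbp was 4.10, 6.03, 3.91 and 9.63 in those animals, and testosterone minus estradiol was 1.17 (SE 0.27, adjusted p = 0.337). Bhlhe40 differed between the hormones by 0.34 (SE 0.17) and Tmem86a by 0.27 (SE 0.12), with adjusted p = 0.999 for both. None of the 4 genes passed the test of the difference between hormones, in which 3 of 10228 probes were called.

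Immediate early genes, which respond to stimuli within minutes, were divided. Of 25 measured, 15 were higher and 10 lower, with a median of 0.15, and 5 passed an unadjusted p under 0.05 on the higher side and 2 on the lower, where the share over all genes was 7.36%. Junb, a subunit of the AP-1 factor, was at 0.141, 0.210, 0.174 and 0.206 in vehicle and 0.537, 0.346, 0.418 and 0.294 in testosterone animals. All testosterone animals exceeded all vehicle animals, and the difference was 1.11 (SE 0.21, adjusted p = 0.109). Fos, its partner, was at 2.67, 2.69, 2.85 and 4.37 in vehicle and 6.08, 6.73, 5.04 and 8.03 in testosterone animals. Again there was no overlap, with vehicle animal 8 highest in its group, and the difference was 1.05 (SE 0.36, adjusted p = 0.273), against 0.56 on the dimmer Fos probe. Egr1, a zinc finger factor, differed by 0.74 (SE 0.23, adjusted p = 0.243), with testosterone animal 8 within the vehicle range. Estradiol minus the same vehicle animals was 1.33 for Junb, 1.41 for the brighter Fos probe and 1.32 for Egr1, none of them called.

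Klf4 and Klf6, Krüppel-like factors of the list, lay on the other side. They were the 2 lower members that passed an unadjusted p under 0.05. Klf9 and Klf10 were also measured and did not pass it on the lower side. Klf4, a factor linked to smooth muscle phenotype and endothelial quiescence, was at 5.33, 5.13, 4.84 and 4.62 in vehicle and 3.46, 3.68, 3.51 and 3.07 in testosterone animals. All testosterone animals were lower, and the difference was -0.54 (SE 0.09, adjusted p = 0.109). Klf6 was at 8.62 to 12.0 in vehicle and 5.27 to 7.43 in testosterone animals, a difference of -0.74 (SE 0.16, adjusted p = 0.150). No immediate early gene was called. Without testosterone animal 2 the median of the list was 0.01.

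Genes known to respond to androgen showed no common direction. Of 21 measured, 10 were higher and 11 lower, with a median of -0.02 (0.05 after quantile normalization). An unadjusted p under 0.05 was passed by 3 and 2 of them, against 6.86% and 7.36% of all genes. Mme, which encodes the peptidase neprilysin, was at 0.139, 0.179, 0.124 and 0.226 in vehicle and 0.315, 0.187, 0.344 and 0.263 in testosterone animals. Testosterone animal 4 lay within the vehicle range, and the difference was 0.73 (SE 0.23, adjusted p = 0.243). Cdkn1a, the cell cycle inhibitor p21, was at 5.53, 4.01, 4.12 and 2.90 in vehicle and 3.36, 2.82, 2.23 and 1.77 in testosterone animals. The groups overlapped, and the difference was -0.71 (SE 0.22, adjusted p = 0.249), with -0.25 on the dimmer probe. Igf1r differed by 0.24 (SE 0.09). Azgp1, which the hepatocyte list also holds, differed by -1.34 (SE 0.58). Igfbp3 differed by 0.38 (SE 0.17) on 1 probe and by -0.61 (SE 0.22) on the other. Fkbp5, a chaperone that steroid hormones induce in many tissues, differed by 0.25 (SE 0.28).

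Among 13 steroid receptors and coregulators, 6 were higher and 7 lower, with a median of -0.04, and only Pnrc1 passed an unadjusted p under 0.05 (-0.34, SE 0.14). The progesterone receptor gene Pgr was at 0.0233 to 0.0298 in vehicle and 0.0103 to 0.0250 in testosterone animals, a difference of -0.51 (SE 0.26) at the dim end of the array. The estrogen receptor genes Esr1 and Esr2 differed by 0.11 (SE 0.12) and -0.27 (SE 0.18), and the glucocorticoid receptor gene Nr3c1 by 0.15 (SE 0.12). Of 12 glucocorticoid responsive genes, 5 were higher and 7 lower, with a median of -0.11, and 1 of them, Cdkn1a, passed the unadjusted p.

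Of 17 enzymes that make or convert steroids, 10 were higher and 7 lower, with a median of 0.13. Hsd17b3, which makes testosterone from androstenedione, differed by -0.89 (SE 0.30, adjusted p = 0.273). Hsd11b2, which inactivates corticosterone, differed by -0.69 (SE 0.29), but by 0.01 on a second probe. Sts, the steroid sulfatase, differed by 0.32 (SE 0.14). Aromatase, encoded by Cyp19a1, differed by -0.16 (SE 0.27), which is within the spread and took either sign when single animals were left out.

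Within the artery wall, contractile genes and endothelial genes showed little difference. Of 14 smooth muscle contractile genes, 6 were higher and 8 lower, the median was -0.10, and 0 passed an unadjusted p under 0.05. The largest was Tpm1, a tropomyosin, at 0.35 (SE 0.20). Cnn1, which encodes calponin, was at 38.6, 47.4, 36.5 and 31.5 in vehicle and 33.8, 41.0, 32.1 and 30.3 in testosterone animals, and the overlapping groups differed by -0.16 (SE 0.15). Of 23 endothelial genes, 8 were higher and 15 lower, with a median of -0.07. These lists hold many bright spots, and after quantile normalization the 3 medians of contractile, endothelial and matrix genes were -0.02, -0.00 and -0.02.

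Sox17, an arterial endothelial transcription factor, was at 2.40, 2.62, 3.18 and 2.52 in vehicle and 2.06, 1.84, 2.06 and 2.29 in testosterone animals. The groups did not overlap, and the difference was -0.37 (SE 0.10, adjusted p = 0.213), against 0.20 on a dimmer probe. Pecam1, which marks endothelium, differed by -0.04 (SE 0.11) and was 0.04 after quantile normalization. Ace, the angiotensin-converting enzyme of the endothelial surface, differed by 0.36 (SE 0.11, adjusted p = 0.243), with testosterone animals 6 and 8 within the vehicle range.

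Of 36 extracellular matrix genes, 13 were higher and 23 lower, with a median of -0.09. An unadjusted p under 0.05 was passed by 1 and 5 of them, against 6.86% and 7.36% of all genes. After quantile normalization 1 higher and 0 lower genes passed it. Fn1, which encodes fibronectin, was at 2.17, 2.95, 2.77 and 2.96 in vehicle and 4.56, 3.30, 3.8 and 3.24 in testosterone animals. No testosterone animal entered the vehicle range, and the difference was 0.45 (SE 0.14, adjusted p = 0.243), but 0.03 on a second probe. Sparc, a collagen-binding matricellular protein, was at 24.4 to 27.7 in vehicle and 18.3 to 23.5 in testosterone animals, a difference of -0.32 (SE 0.13). Plod2, which hydroxylates collagen lysines, was at 7.59 to 8.01 in vehicle, 6.05 to 7.15 in testosterone and 9.12 to 11.8 in estradiol animals. Its differences were -0.23 (SE 0.10) from vehicle and -0.62 (SE 0.10, adjusted p = 0.0898) from estradiol, and none was called.

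Genes of vasodilator systems were mixed in direction. Of 37 measured, 20 were higher and 17 lower, with a median of 0.08, and 11 higher and 2 lower members passed an unadjusted p under 0.05, against 6.86% and 7.36% of all genes. The corresponding counts were 8 and 3 after quantile normalization, and 6 and 2 without vehicle animal 3. Gal, the neuropeptide galanin, was at 0.0463, 0.0428, 0.0407 and 0.0502 in vehicle and 0.0583, 0.0633, 0.0732 and 0.0701 in testosterone animals. Every testosterone animal was above every vehicle animal, and the difference was 0.56 (SE 0.11, adjusted p = 0.109). Bdkrb1, the inducible bradykinin receptor, was at 0.0776 to 0.0960 in vehicle and 0.110 to 0.124 in testosterone animals, a difference of 0.43 (SE 0.09, adjusted p = 0.136). Nppa, the atrial natriuretic peptide gene, was at 0.566, 0.810, 0.558 and 0.680 in vehicle and 1.09, 1.12, 0.847 and 0.852 in testosterone animals, a difference of 0.59 (SE 0.15, adjusted p = 0.210). All 3 lay wholly above the vehicle range.

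Hmox1, which encodes heme oxygenase 1, a source of carbon monoxide, went the other way. It was at 1.49, 1.20, 2.16 and 1.01 in vehicle and 0.666, 0.719, 0.689 and 1.07 in testosterone animals. Testosterone animal 8 alone reached the vehicle range, and the difference was -0.87 (SE 0.27, adjusted p = 0.243). Of 25 vasoconstrictor genes, 16 were higher and 9 lower, with a median of 0.11. An unadjusted p under 0.05 was passed by 4 and 1 of them, against 6.86% and 7.36% of all genes. Agt, which encodes angiotensinogen, was at 0.263, 0.450, 0.392 and 0.316 in vehicle and 0.758, 0.375, 0.939 and 0.424 in testosterone animals. Testosterone animals 2 and 6 were high and animals 4 and 8 were within the vehicle range, so the difference of 0.74 (SE 0.27, adjusted p = 0.297) was uneven between animals. Cyp4a8, a fatty acid hydroxylase related to the enzymes that make the constrictor 20-HETE, differed by 0.48 (SE 0.13). Edn1, endothelin 1, and Adra1d, an alpha-1 adrenoceptor, differed by -0.11 (SE 0.14) and 0.18 (SE 0.12).

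Of 32 ion channel and transporter genes of vascular tone, 15 were higher and 17 lower, with a median of -0.03. Atp2b1, a plasma membrane calcium pump, differed by -0.46 (SE 0.13), Kcnj8, a subunit of the ATP-sensitive potassium channel, by 0.22 (SE 0.09), and Cacna1c, the L-type calcium channel, by 0.39 (SE 0.16). Kcnma1, the large-conductance potassium channel, differed by 0.07 (SE 0.13), within the spread and with either sign when single animals were left out.

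Cyclic nucleotide genes held low p values on both sides. Of 31 measured, 14 were higher and 17 lower, with a median of -0.03, and 5 and 6 passed an unadjusted p under 0.05. Over all genes these shares were 6.86% and 7.36%. Groups did not overlap for 4 higher and 2 lower members, against 2.59% and 3.26% of all genes. Pde2a, a phosphodiesterase that cyclic GMP stimulates, was at 0.395, 0.392, 0.404 and 0.548 in vehicle and 0.265, 0.266, 0.263 and 0.227 in testosterone animals. Every testosterone animal was lower, and the difference was -0.76 (SE 0.12, adjusted p = 0.109). Pde3b, a phosphodiesterase that cyclic GMP inhibits, was at 0.174, 0.243, 0.198 and 0.253 in vehicle and 0.375, 0.262, 0.485 and 0.346 in testosterone animals, a difference of 0.74 (SE 0.19, adjusted p = 0.204). Here every testosterone animal was higher. Akap12, an anchoring protein for protein kinase A, was at 17.2 to 20.0 in vehicle and 12.5 to 16.0 in testosterone animals, a difference of -0.42 (SE 0.10, adjusted p = 0.160), but 0.05 on a second probe. Estradiol minus vehicle was -0.71 for Pde2a, 0.45 for Pde3b and -0.54 for the brighter Akap12 probe, none of them called.

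Stress and metabolic lists had no common direction. Of 36 heat shock and chaperone genes, 12 were higher and 24 lower, with a median of -0.05 (0.01 after quantile normalization). Hspa8, the constitutive HSP70, was at 42.6, 39.8, 33.0 and 34.2 in vehicle and 19.8, 27.9, 21.4 and 27.3 in testosterone animals. The testosterone animals were all lower, without overlap, and the difference was -0.64 (SE 0.13, adjusted p = 0.116). Of 24 antioxidant genes, 14 were higher and 10 lower, with a median of 0.06. Gsr, glutathione reductase, was at 0.0575, 0.0844, 0.0718 and 0.0729 in vehicle and 0.149, 0.116, 0.136 and 0.104 in testosterone animals, without overlap, a difference of 0.82 (SE 0.15, adjusted p = 0.109).

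The medians of oxidative phosphorylation (29 genes), cholesterol synthesis and uptake (20 genes), interferon response (21 genes) and cell cycle (26 genes) were 0.06, 0.02, 0.18 and -0.07. The cell cycle list still held Prim1, a primase subunit, at 0.295, 0.305, 0.372 and 0.453 in vehicle and 0.601, 0.637, 0.503 and 0.574 in testosterone animals. Those groups did not overlap, and the difference was 0.72 (SE 0.16, adjusted p = 0.150).

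Among neuropeptide genes, 18 of the melanocortin and orexin list were measured, 12 higher and 6 lower, with a median of 0.23. Hcrtr2, the second orexin receptor, was at 0.148, 0.120, 0.220 and 0.157 in vehicle and 0.0924, 0.0850, 0.0809 and 0.0692 in testosterone animals, a difference of -0.95 (SE 0.17, adjusted p = 0.109). Mc5r, a melanocortin receptor, was at 0.0595 to 0.0927 in vehicle and 0.101 to 0.147 in testosterone animals, a difference of 0.82 (SE 0.16, adjusted p = 0.116). Neither gene's groups overlapped, and both spots were dim. Estradiol minus vehicle was -0.93 for Hcrtr2 and 0.70 for Mc5r, and neither was called.

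**Figure D4:**
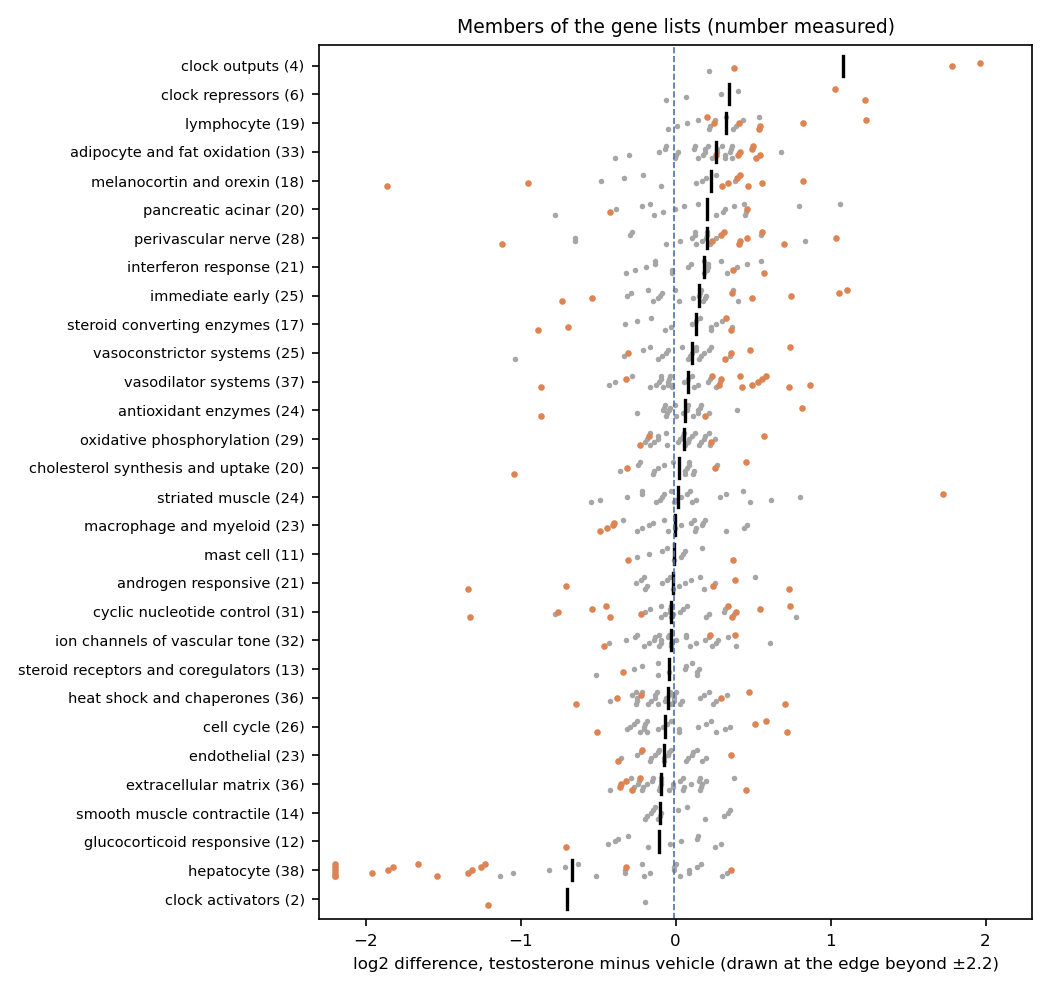
Each point is a measured member of a gene list, with its log2 difference between testosterone and vehicle on the x axis; orange marks an unadjusted p under 0.05, black bars mark list medians, and the dashed line is the median of all genes at -0.01. Clock outputs, at a median of 1.08, and clock activators (-0.70) and hepatocyte genes (-0.67) lie at the ends, while the other list medians lie between -0.11 and 0.34.

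Marker lists of other cell types differed between animals and, for some, between groups. In whole arteries fewer cells of a type and less RNA per cell cannot be told apart. Hepatocyte genes were the most uneven. Of 38 measured, 9 were higher and 29 lower, with a median of -0.67. An unadjusted p under 0.05 was passed by 1 and 16 of them, against 6.86% and 7.36% of all genes. Fabp1, a liver and gut fatty acid binding protein that is not on the list and was named for its small p, was at 2.60, 1.08, 10.7 and 0.0664 in vehicle animals 3, 4, 5 and 8 and at 0.0207, 0.0318, 0.0242 and 0.0154 in testosterone animals 2, 4, 6 and 8. Gc, the vitamin D binding protein, was at 2.12, 1.34, 13.5 and 0.217 in the same vehicle animals and at 0.0412, 0.0742, 0.05 and 0.0435 in the testosterone animals. Vehicle animals 5, 3 and 4 were high and vehicle animal 8 was the vehicle animal nearest to the testosterone animals.

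The Fabp1 difference was -5.74 (SE 1.25, adjusted p = 0.148), the Gc difference was -5.06 (SE 1.07, adjusted p = 0.136), and that of Fetub, the plasma protein fetuin B, was -4.69 (SE 0.92, adjusted p = 0.116). Alb, the albumin gene, differed less, by -1.67 (SE 0.74, adjusted p = 0.349), and its groups overlapped. Summed brightness of the liver markers Alb, Apoa1, Fgb and Gc was 0.536 to 18.5 in vehicle and 0.202 to 0.508 in testosterone animals. In the estradiol animals that sum was 0.348 to 0.595, and Gc was lower there than in vehicle too, by -3.98 (SE 1.07, not called). Of these 4 markers 0 was at 0 in all animals. Without vehicle animal 5 the list median was -0.18, and Gc was at -4.07 and Fabp1 at -4.68. Without vehicle animal 8 the list median was -0.91, and Fabp1, Gc, Fetub and Serpina3c were among the 11 probes called. Which cells carried this RNA was not tested. The part that the hepatocyte genes in the vehicle animals have in other differences was not tested either. With vehicle animal 5 removed, the clock differences were -1.17 for Bmal1 and 1.98 for Dbp. That fit does not test the part of the hepatocyte genes, because Gc and Fabp1 were still far lower with testosterone in it.

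Lymphocyte genes lay higher with testosterone in 18 of 19 measured, against 47.1% of all genes and 58.9% of the dimmest of the 4 brightness classes. The median was 0.32 (0.30 after quantile normalization). On the higher side 7 passed an unadjusted p under 0.05, against 6.86% of all genes. Leaving out single animals gave medians of 0.26 to 0.38. Ccr7, a chemokine receptor of naive T cells and dendritic cells, was at 0.0124, 0.00827, 0.0119 and 0.0133 in vehicle and 0.0239, 0.0394, 0.0263 and 0.0200 in testosterone animals. The groups did not overlap, and the difference was 1.23 (SE 0.27, adjusted p = 0.150). Cd8a, a T cell coreceptor, was at 0.0160 to 0.0402 in vehicle and 0.0398 to 0.0599 in testosterone animals, a difference of 0.82 (SE 0.24, adjusted p = 0.238). These spots were among the dimmest. Duplicate arrays of an animal differed by a median of 0.89 (log2) for Ccr7 and 0.51 for Cd8a, against 0.12 over all probes. The summed brightness of the 3 lymphocyte markers measured was 0.193 to 0.363 in vehicle and 0.321 to 0.422 in testosterone animals, and all 3 were higher. The part of lymphocytes in other differences was not tested.

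A list of fat cell genes lay higher in 27 of 33, against 47.1% of all genes, with a median of 0.26 under both scalings. It holds genes of brown fat and fatty acid oxidation such as Ucp1 and Cpt2 beside those of white fat. On the higher side 7 members passed an unadjusted p under 0.05, against 6.86% of all genes. The count of 7 became 4 without vehicle animal 5 or without testosterone animal 2. Agpat2, an enzyme of triglyceride synthesis, was at 3.53, 4.32, 4.31 and 3.78 in vehicle and 5.75, 5.39, 6.61 and 5.13 in testosterone animals. No vehicle animal reached the testosterone range, and the difference was 0.52 (SE 0.11, adjusted p = 0.136). Aqp7, the glycerol channel of fat cells, was at 0.732 to 1.19 in vehicle and 1.20 to 1.49 in testosterone animals, a difference of 0.50 (SE 0.14, adjusted p = 0.223). Adipoq, which encodes adiponectin, was at 23.4 to 29.9 in vehicle and 19.8 to 30.0 in testosterone animals and differed by -0.06 (SE 0.13), so this defining marker did not share the direction of the list, and its sign was positive after quantile normalization. Whether the amount of adhering fat differed was not tested.

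Perivascular nerve genes lay higher in 22 of 28, against 47.1% of all genes, with a median of 0.20 (0.17 after quantile normalization). At an unadjusted p under 0.05, 9 were higher and 1 was lower, against 6.86% and 7.36% of all genes. The direction was uneven between animals. The mean of the list, relative to all animals, was -0.21 in vehicle animal 3 and -0.06 to -0.01 in the other vehicle animals. It was 0.25 and 0.15 in testosterone animals 2 and 4, but -0.003 and -0.05 in testosterone animals 6 and 8. The values of testosterone animals 6 and 8 lay just above or within the vehicle range. Cplx1, a regulator of vesicle release, was at 0.157, 0.212, 0.175 and 0.154 in vehicle and 0.300, 0.317, 0.245 and 0.271 in testosterone animals. For Cplx1 the testosterone animals were all higher, and the difference was 0.70 (SE 0.14, adjusted p = 0.116). Snap25, a protein of the same vesicle machinery, differed by -1.12 (SE 0.30) on a spot near the floor of the array. The summed brightness of the nerve markers Dbh, Npy and Uchl1 was 1.79 to 2.33 in vehicle and 2.21 to 2.93 in testosterone animals, and all 3 were higher.

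Striated muscle genes had a median of 0.02 over 24 measured, and 1 passed an unadjusted p under 0.05. That gene was Tcap, which encodes the sarcomere protein telethonin and is also known as a clock-regulated gene in muscle. It was at 0.142, 0.181, 0.123 and 0.219 in vehicle and 0.964, 0.400, 0.515 and 0.421 in testosterone animals. The groups did not overlap, and the difference was 1.73 (SE 0.32, adjusted p = 0.109). The summed brightness of the striated muscle markers Acta1, Ckm and Mb was 1.98 to 6.08 in vehicle and 3.34 to 7.23 in testosterone animals, and 2 of these 3 were higher.

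Pancreatic acinar genes were set by single animals. Their mean, relative to the 12 animals, was -0.12 in vehicle animal 8 and -0.92 to -0.84 in the other vehicle animals, and it was 0.48 in testosterone animal 6 and -1.13 to -0.58 in the others. The median over 20 genes was 0.20 and became -0.26 without testosterone animal 6. Macrophage and myeloid genes had a median of -0.00 over 23. At an unadjusted p under 0.05, 0 were higher and 4 lower, against 6.86% and 7.36% of all genes. Among the 4 were C1qa and C1qc, complement components made by macrophages, at -0.40 each (SE 0.15 and 0.18). The median was 0.06 without vehicle animal 5. Mast cell genes had a median of -0.01 over 11.

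**Figure D5:**
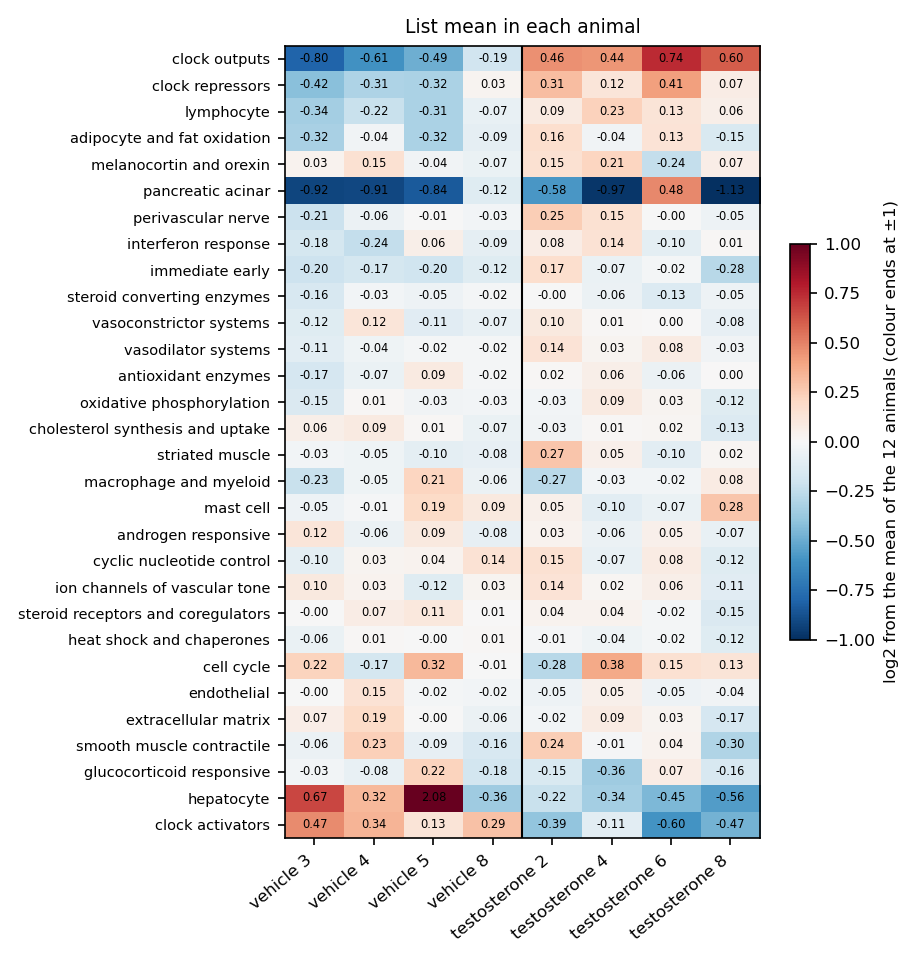
Each cell is the mean log2 deviation of a gene list (rows) in 1 animal (columns, vehicle left and testosterone right of the line) from the mean of all 12 animals. Clock outputs are below 0 in the 4 vehicle animals and above 0 in the 4 testosterone animals, while hepatocyte genes stand at 2.08 in vehicle animal 5 and pancreatic acinar genes at 0.48 in testosterone animal 6.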

How the data were processed

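Total RNA of the arteries (2 µg per animal, per the labels' protocols) was made into labelled cRNA, and 10 µg was hybridised for 18 h at 37 C to one-colour CodeLink arrays. The deposited values are linear spot intensity as scaled by the authors, on a scale where each array median is just below 1. The scanner software and the steps of background correction, scaling and spot filtering: not given in the sources used here. Missing entries were blank spots and the 242 values at or below 0 on the vehicle and testosterone arrays, log2 was taken of the rest, and the 2 arrays of an animal were averaged. Nothing in the labels says more about how animals were housed or processed, so p-values measure the spread between these animals.

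A group-means model was fitted to all 12 animals with limma 3.58.1 in R 4.3.3 (lmFit and eBayes, 9 residual and 2.51 prior degrees of freedom), with two-sided tests and Benjamini-Hochberg adjustment over the 10228 probes measured in 3 or more animals per group. Other p-values printed without the word adjusted come from the same fit. Calls required an adjusted p under 0.05. Of 10399 probes, 7294 had 1 symbol, 88 several and 3017 none, and 7284 of the first matched the RefSeq table by gene ID, which changed 0 symbols. Where a gene had several probes (741 genes), the brightest on average stood for it. Bright and dim describe spots, and brightness was not used to compare RNA amounts between genes or cell types. Gene lists are described by counts and medians only. The fit was tested on simulated data.

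The members and lists were chosen with earlier results of these data known. Named genes were those called, the 15 on each side with the smallest unadjusted p, all measured clock genes, up to 5 members of each other list by p, up to 10 bright genes per side by size without overlap, and a set of 22 genes whatever their values, of which 8 had no tested probe with 1 symbol. Members given in results beyond these are named only as list examples. Alternatives were fits of 8 animals, a replicate block, quantile normalization, median centring, log2(value + 0.1), filters on dim and missing values, AA or AB arrays alone, 24 arrays with the animal as a random block, other priors, animal weights and each animal left out.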

Additional observations from a re-analysis of the deposited data

Results flagged for a closer look

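The check for outlying animals covered 148 groups of 4 animals, from the gene lists and a chosen set of the named genes. That set leaves out some genes printed by animal, such as Nr1d2 and Cnn1. In 7 groups an animal's gap to the next exceeded the 95% Dixon value for the range of the group. Chance alone gives about 1 in 20 such groups. Vehicle animal 5 had the highest Bmal1 level of its group, at 4.09 against 3.63 to 3.67. Vehicle animal 8 had the highest Fos level, at 4.37 against 2.67 to 2.85, and the highest Pde2a level, at 0.548 against 0.392 to 0.404. Testosterone animal 8 had the lowest Pde2a level of its group, at 0.227 against 0.263 to 0.266, and the highest Hmox1 level, at 1.07 against 0.666 to 0.719. The mean deviation of the endothelial list from the 12 animals was 0.148 in vehicle animal 4. The mean deviation of the pancreatic acinar list was -0.124 in vehicle animal 8. In 5 of the 7 cases the animal was number 8 of either group. No explanation was tested for these animals.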

How the results depend on the processing

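The number of probes called, 5, was unstable: it was 1 with only the 8 vehicle and testosterone animals, 8 after quantile normalization, 2 without the dimmest 25% of probes, 3 on the AA arrays and 151 (50 higher, 101 lower) with 24 arrays and the animal as a random block. Leaving out 1 animal gave 0 to 45. Deviations of same-numbered animals correlated at -0.12 and 0.04 between vehicle and testosterone, 0.30 and 0.04 between testosterone and estradiol, and -0.06, 0.06 and 0.12 between vehicle and estradiol. Not every pair exceeded 0.1, so the numbers were not taken as pairs. With the number as a replicate block, 0 probes were called (adjusted p = 0.190 for Bmal1, 0.193 for Dbp and Bhlhe40 and 0.247 for Tmem86a) and 989 had an unadjusted p under 0.05. Over all settings 989 to 1642 probes had that p, within 1.5 times of the count reported. Genes whose groups did not overlap numbered 373, and 489 to 846 when 1 animal was left out, where fewer animals make overlap rarer by construction. Over the genes named by rule, 4199 values kept direction and side of the threshold, 50 passed it newly, 43 lost it and 21 changed sign, each of them not called in the fit reported. With the block, Cry2 was 0.0041, Csnk1d -0.25, Ppp1r12a -0.039, Mcpt4 0.00023, Pecam1 0.023 and Kcnma1 -0.015. On the AB arrays Csnk1d was -0.048 and Kcnma1 -0.030. Quantile normalization gave 0.042 for Pecam1 and 0.029 for Adipoq, and animal weights gave 0.050 for Adipoq. Leaving out 1 animal gave -0.051 to 0.33 for Csnk1d, -1.36 to 0.024 for Reg3g, -0.39 to 0.11 for Cyp19a1, -0.11 to 0.0064 for Pecam1, -0.16 to 0.044 for Adipoq and -0.0094 to 0.12 for Kcnma1. The causes were not tested. Of 780 list medians, 757 moved by less than the spread between animals and 23 by more. Dim spots limit Per2, Pgr, Snap25 and the lymphocyte genes.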
